A study of Mus musculus with 10 samples.

Results

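The HOX genes are the homeobox transcription factor genes that lie in 4 clusters, HoxA, HoxB, HoxC and HoxD, and were measured here in haematopoietic stem cells (HSCs) from the bone marrow of Sox17-transgenic and wild-type mice. Members were all genes with a symbol made of Hox, a cluster letter and a number that had a probe set annotated to that gene alone. The rule found 37 genes, each with 1 probe set, among 19938 genes that had such a probe set. They comprised 10 genes of HoxA (chromosome 6), 9 of HoxB (chromosome 11), 9 of HoxC (chromosome 15) and 9 of HoxD (chromosome 2). Hoxb8 is not among them, since it lay on a probe set shared with Hoxb7.

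The transgenic group held 5 arrays of cells from double transgenic mice. These carried (tetO)7CMVSox17-IRES-NucEGFP, a doxycycline-responsive Sox17 transgene with a green fluorescent reporter, and the activator allele Gt(ROSA)26Sortm1(rtTA*M2)Jae of a B6.Cg stock (/J), expressed from the widely active Rosa26 locus. The control group held 5 arrays of cells from littermates labelled wild type. All mice were 8 weeks old and had drunk doxycycline at 2 mg/ml for 5 days, which turns on Sox17 only where the tetracycline-controlled activator is present. Each aliquot held 10000 double-sorted cells with CD150, Sca1 and cKit on their surface but neither CD48 nor lineage markers. The aliquots are called independent but are not tied to single animals, so each p-value reflects the scatter among these aliquots, part of which may be technical. The comparison asks what induced Sox17, a factor on which fetal and newborn HSCs depend, changes in adult HSCs. By the labels the groups also differ in the activator and the fluorescent reporter, and the part of each cannot be told apart.

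Along each cluster the genes are numbered in the order of 13 paralogue groups, low numbers at the end that is active early and towards the head of the embryo, high numbers at the end that is active late and towards the tail. HOX proteins bind DNA together with TALE cofactors of the PBX and MEIS families. Their own genes are kept active by the MLL methyltransferase complex and silenced by Polycomb proteins. In blood formation, genes from the middle of the HoxA and HoxB clusters are active in stem and progenitor cells and are shut down as cells mature.

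The RefSeq promoter table (GRCm38.p6) held start sites for 22 HOX genes, 24 starts in all. The 250 bases before the start are shown for 3 genes on which the results below turn: Hoxa5 and Hoxa9, HoxA genes above the upper quartile of probe sets, and Hoxb4, which had one of the widest spreads between arrays. Capitals mark matches to the motifs named after them.
Hoxa5, chr6:52204588-52204837, minus strand: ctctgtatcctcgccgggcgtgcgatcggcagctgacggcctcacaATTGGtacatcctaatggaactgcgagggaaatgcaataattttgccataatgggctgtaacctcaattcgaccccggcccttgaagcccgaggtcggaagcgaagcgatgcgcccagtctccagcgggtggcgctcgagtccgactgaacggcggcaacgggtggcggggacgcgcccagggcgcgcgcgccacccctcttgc
Hoxa9, chr6:52227371-52227620, minus strand: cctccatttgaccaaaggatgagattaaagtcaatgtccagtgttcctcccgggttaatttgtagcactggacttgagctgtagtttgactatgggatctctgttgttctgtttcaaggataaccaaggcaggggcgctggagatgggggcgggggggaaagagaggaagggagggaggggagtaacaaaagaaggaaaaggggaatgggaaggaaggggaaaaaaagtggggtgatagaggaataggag
Hoxb4, chr11:96318017-96318266, plus strand: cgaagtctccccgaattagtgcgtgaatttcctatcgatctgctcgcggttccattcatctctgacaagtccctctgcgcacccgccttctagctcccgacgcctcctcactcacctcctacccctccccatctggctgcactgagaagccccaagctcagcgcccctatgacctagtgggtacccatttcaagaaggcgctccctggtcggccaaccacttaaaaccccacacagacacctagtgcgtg

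Motifs were searched on both strands of these windows, and no matches overlapped in the 3 shown. AACAAT, a core bound by SOX proteins, was in 0 of the 24 HOX windows and in 9.42% of all 32851 promoter windows of this length. CCAAT, the box bound by NF-Y, was in 14 of the 24 (58.3%) against 33.8% of all windows, and Hoxa5 held 1. CACGTG, the E-box bound by USF proteins, was in 4 (16.7%) against 6.02%, and TGATTNAT, a joint PBX and HOX element, in 2 (8.33%) against 2.82%. A match describes the letters only, and the windows leave out enhancers and the other genes of the clusters.

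The 10 arrays fell into 2 sets that crossed the groups, and the HOX values are also given by these sets below. They were split by sign on the leading principal component, at 40.1% of the variance left after group means were removed. Set A held transgenic arrays 1, 2 and 3 and wild-type arrays 1 and 2. Set B held transgenic arrays 4 and 5 and wild-type arrays 3, 4 and 5. The labels name no batch. Correlations between arrays ran from 0.972 to 0.992. Xist, the RNA of the inactive X chromosome, was at 4.32 on transgenic array 4 and at 10.8 or more on the other 9 arrays. Eif2s3y, a gene of the Y chromosome, was at 9.23 on that array and at 2.57 to 2.87 on the others. Transgenic array 4 thus reads as male and the others as female. Sox17 itself averaged 4.37 ± 0.13 in the transgenic group and 4.21 ± 0.13 in the control group (SD, n = 5, limma adjusted p = 0.855). Its probe set thus shows no clear induction and gives no check of the labels, on which every direction below rests. Of 11 HSC markers measured, Hoxb5 among them, 11 lay above the median of probe sets and 9 above the upper quartile (7.31).

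Values are in log2 units of robust multi-array average (RMA) values. The brightness of a probe set depends on its probes, so values of different genes cannot be ordered. Each was placed only within the distribution of the 23410 probe sets tested, those with at least 1 gene symbol, whose median was 5.81.

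The HOX genes above that median, called readable below, all belonged to HoxA and HoxB. They were 13 of the 37 genes: 7 of the 10 HoxA genes, from Hoxa3 to Hoxa10, and 6 of the 9 HoxB genes, Hoxb1 and Hoxb3 to Hoxb7. None of the 18 HoxC and HoxD genes lay above the median. The name readable marks only a level above it and is no call of detection. Of 10 stromal markers 2 also lay above it. Of paralogue groups 4 to 7, 8 of 12 genes lay above the median, against 3 of 7 in groups 1 to 3, 2 of 9 in groups 8 to 10 and 0 of 9 in groups 11 to 13. Above the upper quartile lay 5 genes, Hoxa5 (percentile 84.1), Hoxa7 (76.6), Hoxa9 (82.8), Hoxb4 (76.6) and Hoxb5 (75.2); these percentiles place probe sets and do not order the transcripts.

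**Figure D1:**
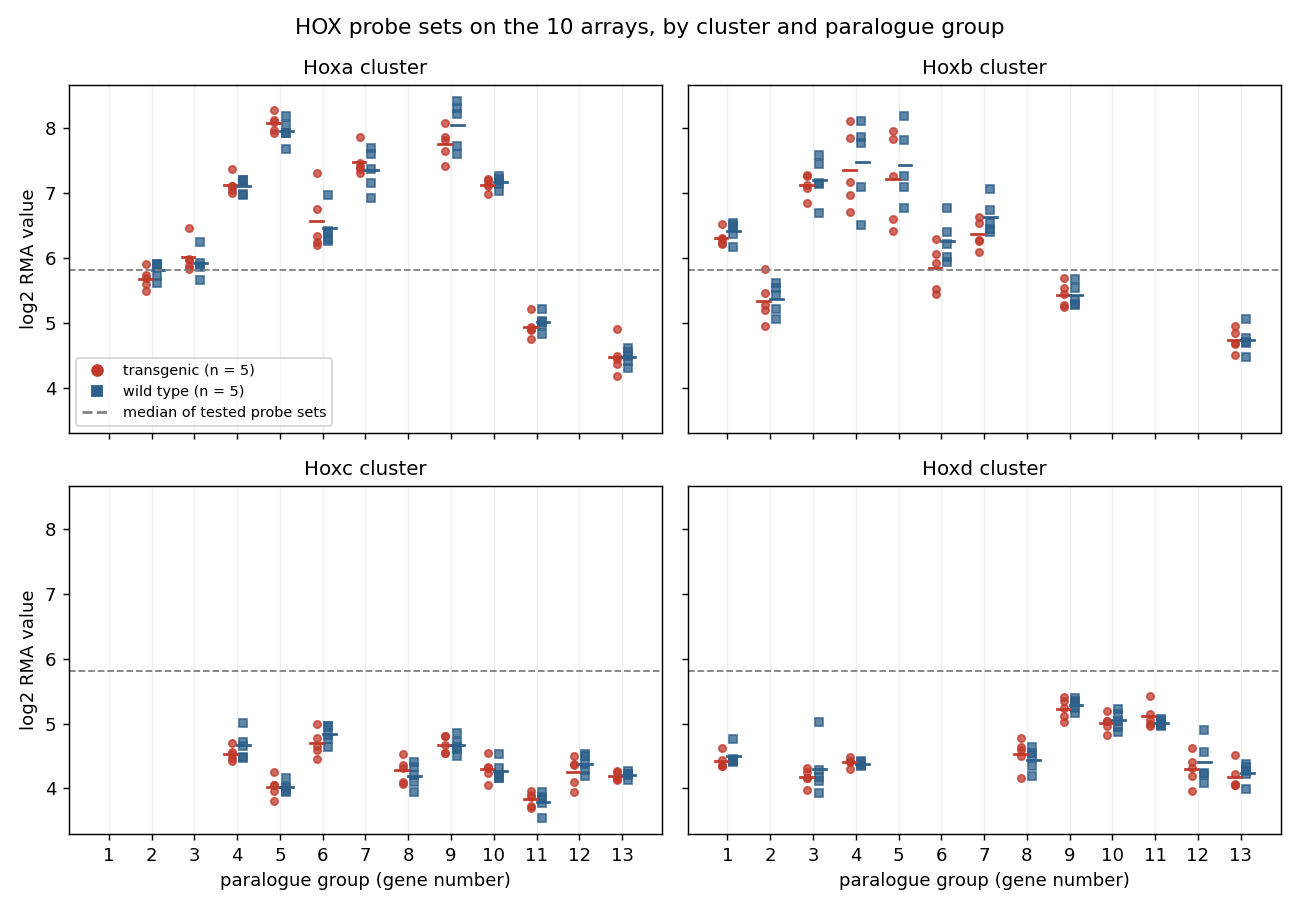
Log2 RMA values (vertical axis) of the HOX probe sets by paralogue group (horizontal axis), 1 panel per cluster, with 5 transgenic arrays (circles) and 5 wild-type arrays (squares) per gene, short lines at the group means and a dashed line at the median of tested probe sets, 5.81. The middle HoxA and HoxB genes lie above the line and all HoxC and HoxD genes below it, with the groups overlapping at every gene.

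HoxC genes had mean values of 3.81 to 4.77 and HoxD genes of 4.21 to 5.26, and 10 of these 18 lay below the lower quartile of probe sets (4.40). The highest single reading among them was 5.42, for Hoxd11 on transgenic array 5. The genes of paralogue groups 11 to 13 in the other clusters also lay below the median: Hoxa11 and Hoxa13 averaged 4.94 and 4.48 on the transgenic arrays, and Hoxb13 averaged 4.73. At such levels RMA compresses differences, and a change in a gene that is barely transcribed could be missed. The probe set shared by Hoxb8 and Hoxb7 read 4.60 to 5.13 in the transgenic group and 4.65 to 5.61 in controls.

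No HOX gene passed the test between the groups. Of the 37 genes 0 passed an adjusted p of 0.05 (limma, Benjamini-Hochberg over all 23410 probe sets), where 0.141% of all probe sets did. Also 0 had an unadjusted p under 0.05, where 6.59% of all probe sets had one (3.7% higher and 2.9% lower in the transgenic group), and in 0 did the groups not overlap, against 1.47% of all. The differences, transgenic minus wild type, ran from -0.42 for Hoxb6 to 0.13 for Hoxa7. Their median was -0.033 beside -0.011 over all probe sets, and 22 of the 37 were negative (59.5%, against 53.7% of all). In cells sorted in bulk, fewer cells of a type and less RNA per cell cannot be told apart.

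The 95% intervals show how large a change these arrays leave room for. Over the 37 genes the bounds ran from -0.97 to 0.64, that is from 0.509-fold to 1.56-fold, both ends set by Hoxb5 and Hoxb4. For the 18 HoxC and HoxD genes they stayed between -0.52 and 0.36, at levels where differences are compressed. The interval was narrowest among the readable genes for Hoxa10, from -0.21 to 0.12, and for Hoxa4, from -0.18 to 0.22.

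**Figure D2:**
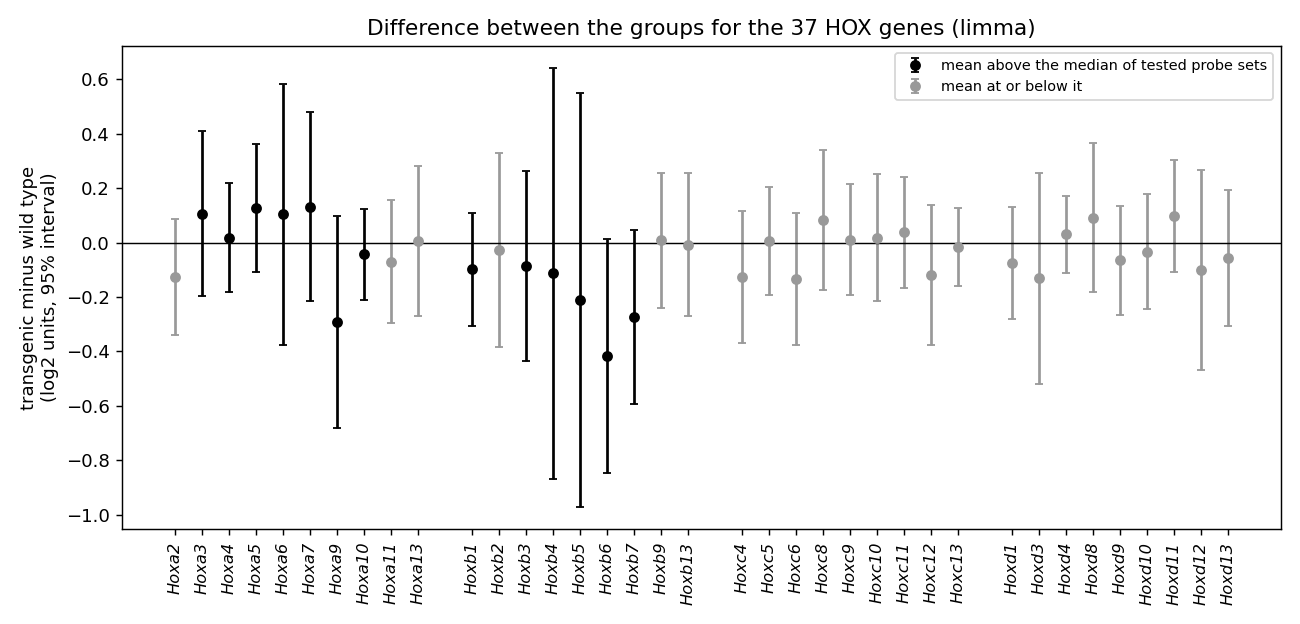
Difference between the groups (vertical axis, log2 units, limma estimate with its 95% interval, n = 5 against 5) for each HOX gene (horizontal axis), black where the mean lies above the median of tested probe sets and grey elsewhere. Every interval includes 0; those of Hoxb4 and Hoxb5 are the widest.

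Among the HoxA genes, Hoxa9, which stem cells need for full repopulating capacity and which drives many myeloid leukaemias, read 7.42, 7.86, 7.66, 7.82 and 8.08 on transgenic arrays 1 to 5. On wild-type arrays 1 to 5 it read 7.73, 7.60, 8.43, 8.32 and 8.22. The 3 highest readings were wild-type, but arrays 1 and 2 of that group lay within the transgenic range. The difference was -0.29 (SE 0.18, adjusted p = 0.888, limma), with an interval from -0.68 to 0.10. Within set A it was -0.02, and within set B -0.37, where both transgenic arrays lay below all 3 wild-type arrays.

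Hoxa5, a regulator of myeloid and erythroid differentiation, read 8.14, 8.11, 7.93, 7.98 and 8.28 on the transgenic arrays and 7.68, 7.93, 8.20, 8.06 and 7.92 on the wild-type arrays. Its groups overlapped through most of their range, with a difference of 0.13 (SE 0.11). Hoxa7, which acts in progenitor expansion, read 7.47, 7.31, 7.38, 7.40 and 7.87 on the transgenic arrays and 7.15, 6.93, 7.71, 7.37 and 7.61 on the wild-type arrays. The lowest readings, on wild-type arrays 1 and 2, both belong to set A, and the difference was 0.13 (SE 0.16), with 0.34 within set A and 0.07 within set B.

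Hoxa10, which affects megakaryocytic and erythroid fate when overexpressed, varied little: it read 7.14, 7.21, 7.11, 7.21 and 6.99 on the transgenic arrays and 7.14, 7.20, 7.23, 7.27 and 7.04 on the wild-type arrays. The lowest reading in each group was on array 5, and the difference was -0.043 (SE 0.076). Its within-group SD of 0.09 was at percentile 6.83 of all probe sets. Hoxa4 read 7.37, 7.11, 7.12, 7.01 and 7.05 on the transgenic arrays against 7.20, 7.19, 6.97, 7.21 and 7.00 on the wild-type arrays, a difference of 0.019 (SE 0.092) whose sign changed with the array set as a block (-0.013). Hoxa4 had its highest reading on transgenic array 1 and its lowest on wild-type array 3.

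Hoxa6 had 1 high array in each group. It read 6.25, 6.76, 6.19, 6.34 and 7.32 on the transgenic arrays and 6.42, 6.26, 6.29, 6.40 and 6.97 on the wild-type arrays, array 5 being highest in both. The difference was 0.10 (SE 0.22), and -0.08 without transgenic array 5. Hoxa3 read 6.46 on transgenic array 1 and 5.83, 5.88, 5.97 and 5.98 on the others, against 5.87, 5.67, 5.92, 5.87 and 6.26 on the wild-type arrays. Without transgenic array 1 its difference of 0.11 (SE 0.14) became -0.0034.

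Among the HoxB genes all 6 readable members had negative differences, with a median of -0.16, and none passed the threshold. Neighbouring genes of a cluster share arrays and regulatory DNA, so their shared sign is not 6 independent observations. Of all probe sets above the median level 50.5% were negative, and of the 7 readable HoxA genes 2 were. In set B, which held 2 transgenic and 3 wild-type arrays, 5 of these 6 HoxB genes averaged higher. With the array set as a block, the sign of Hoxb4 changed (0.10) and Hoxb5 was at -0.016. Hoxb6, which expands early myeloid cells when overexpressed, had the smallest p of the HOX genes. It read 5.45, 5.93, 5.52, 6.07 and 6.30 on the transgenic arrays and 6.02, 5.93, 6.77, 6.22 and 6.40 on the wild-type arrays. Transgenic arrays 1 and 3 were the lowest and wild-type array 3 the highest, with the others overlapping. The difference was -0.42 (SE 0.20, unadjusted p = 0.0563, limma adjusted p = 0.773), with -0.35 among set A arrays and -0.28 among those of set B.

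Hoxb7 read 6.27, 6.10, 6.27, 6.54 and 6.64 on the transgenic arrays and 6.44, 6.54, 6.40, 7.06 and 6.74 on the wild-type arrays. The 3 lowest readings were transgenic and the 2 highest wild-type, with a difference of -0.27 (SE 0.15, adjusted p = 0.832, limma). Hoxb3 read 7.27, 7.13, 7.08, 6.85 and 7.28 against 7.16, 6.69, 7.15, 7.59 and 7.45, a difference of -0.09 (SE 0.16), made up of 0.24 in set A and -0.33 in set B. Hoxb1 read 6.53, 6.30, 6.30, 6.22 and 6.23 against 6.48, 6.51, 6.38, 6.54 and 6.17, with a difference of -0.10 (SE 0.09).

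Hoxb4 and Hoxb5 varied most between arrays of the same group. Hoxb4 is best known for expanding HSCs when overexpressed, and Hoxb5 marks long-term repopulating HSCs of the mouse. Their within-group SDs were 0.63 and 0.64, at percentiles 97.8 and 97.9 of all probe sets and 96.9 and 97.0 of those above the median level. Hoxb4 read 7.18, 6.97, 6.70, 7.85 and 8.12 on the transgenic arrays and 6.51, 7.09, 7.87, 8.12 and 7.78 on the wild-type arrays. In both groups the readings parted by array set: all 5 arrays of set A lay at or below 7.18 and all 5 of set B at or above 7.78. Hoxb5 read 7.27, 6.61, 6.43, 7.83 and 7.96 on the transgenic arrays and 7.10, 6.77, 8.19, 7.82 and 7.27 on the wild-type arrays. It followed the same division, except that transgenic array 1 of set A and wild-type array 5 of set B both read 7.27.

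Between the array sets, the mean of Hoxb4 was 6.89 (A) and 7.95 (B), a gap of 1.06, whereas its difference between the groups was -0.11 (SE 0.34). Hoxb5 averaged 6.83 and 7.81, a gap of 0.98, against a group difference of -0.21 (SE 0.35). The gap was 0.58 for Hoxb6, 0.35 for Hoxb7, 0.20 for Hoxb3 and -0.12 for Hoxb1. Among HoxA genes it was 0.52 for Hoxa9, 0.34 for Hoxa7, 0.29 for Hoxa6, 0.13 for Hoxa5, -0.01 for Hoxa10 and -0.15 for Hoxa4. Of the 13 readable HOX genes 10 averaged higher in set B, as did 5997 of the 11705 probe sets above the median level.

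The sets did not overlap for 2 of the 37 HOX genes, Hoxb4 and Hoxb6, both higher in set B, beside 5.32% of all probe sets that were separate and higher in B, 3.92% separate and higher in A and 9.24% separate in either direction. These sets were defined from the arrays' values, HOX genes included, so the gaps are a description with no test, and what the sets stand for was not tested. The largest gaps among the myeloid markers were those of S100a9 and S100a8. The mean of S100a9 was 5.41 on set A arrays and 6.83 on set B arrays, with no overlap, and that of S100a8 4.40 and 5.57. Of the 9 granulocyte and monocyte markers, 6 averaged higher in set B, and the median gap was 0.093. Lyz2 (-0.07), Ngp (-0.17) and Csf1r (-0.01) averaged lower there. The part of these markers in the HOX gaps was not tested. Since the sets come from the residuals themselves, blocking on them narrows the intervals of genes that follow the sets, whatever they stand for. Other intervals can widen: the SE of Hoxa10 was 0.076 without the block and 0.080 with it. With the set as a block the Hoxb4 difference between the groups was 0.10 (SE 0.14), with an interval from -0.20 to 0.40 in place of -0.87 to 0.64. For Hoxb5 it was -0.016 (SE 0.20), from -0.46 to 0.43, and for Hoxb6 -0.31 (SE 0.13, adjusted p = 0.510, limma).

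**Figure D3:**
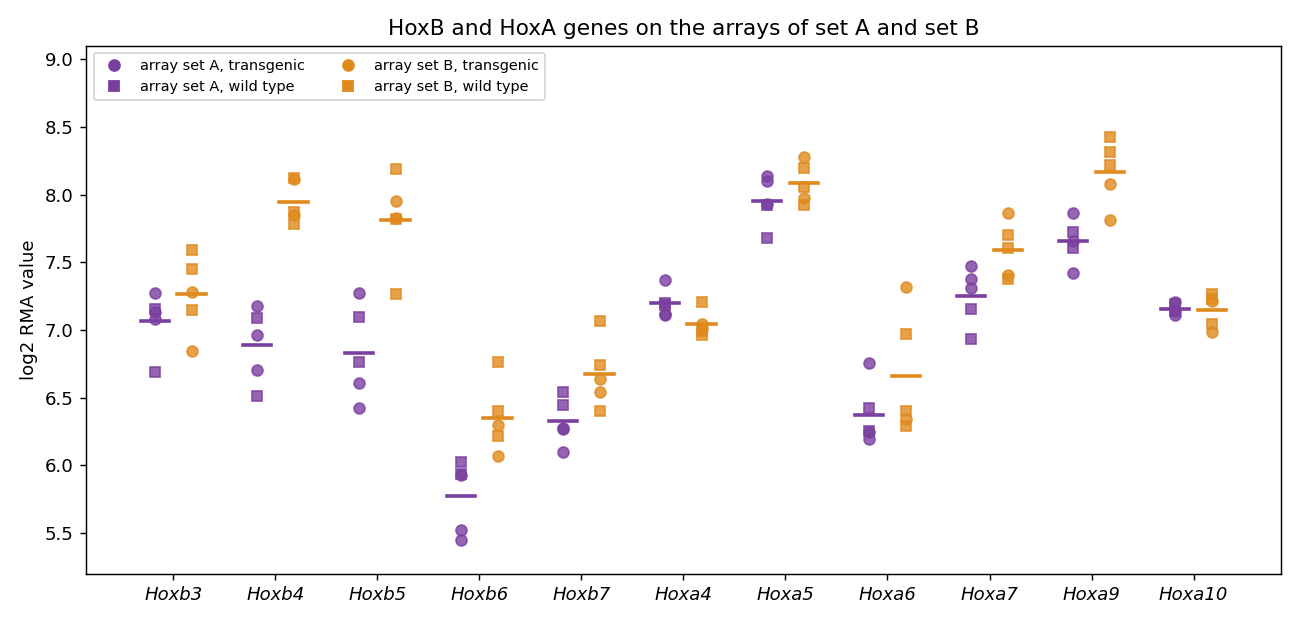
Log2 RMA values (vertical axis) of 11 HoxB and HoxA genes (horizontal axis) on the arrays of set A (purple) and set B (orange), circles for transgenic and squares for wild-type arrays, with a line at each set's mean. Hoxb4 and Hoxb6 do not overlap between the sets; Hoxb5 and Hoxa9 are also higher on average in set B, and Hoxa10 differs by -0.01.

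Of 9 measured non-coding RNA genes inside the clusters, 5 lay below the lower quartile of probe sets and 1, Mir615 in HoxC, above the median. The clusters hold the genes of miR-10 and miR-196, and miR-196 pairs with HOX messenger RNAs, Hoxb8 being the classic target. The mature forms are shown because members of each family, from different clusters, share 1 seed, bases 2 to 8, in capitals.
mmu-miR-10a-5p, near Hoxb4: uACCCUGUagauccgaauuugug
mmu-miR-10b-5p, near Hoxd4: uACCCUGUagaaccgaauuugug
mmu-miR-196a-5p, from HoxB and HoxC: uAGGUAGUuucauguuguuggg
mmu-miR-196b-5p, near Hoxa9 and Hoxa10: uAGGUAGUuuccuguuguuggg
The sequences are from RefSeq (GRCm38.p6), and within each family the 2 forms differ at 1 position outside the seed.

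The arrays' probe sets are annotated to the miRNA genes and do not measure the mature forms. Mir10a and Mir10b averaged 2.62 and 2.60 on the transgenic arrays and Mir196a-1 and Mir196a-2 3.36 and 3.57, all below the lower quartile of probe sets. Mir196b, which lies between Hoxa9 and Hoxa10, was at percentile 49.5 and read 6.11, 6.29, 5.64, 5.84 and 5.65 on the transgenic arrays and 5.83, 5.63, 5.25, 5.70 and 5.84 on the wild-type arrays. These ranges overlapped, with a difference of 0.25 (SE 0.15, adjusted p = 0.888, limma). Mir615 averaged 7.08 and 7.22 in the groups, a difference of -0.15 (SE 0.12). Of the 9 genes 0 passed the threshold, and 0 had an unadjusted p under 0.05. Of 12 genes that neighbour the clusters 0 passed and 0 had an unadjusted p under 0.05 either, Skap2 beside HoxA reading 9.12 and 9.19 in the groups.

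The partners of HOX proteins come next. Of 10 measured TALE cofactors 0 passed the threshold, 0 had an unadjusted p under 0.05, and the median difference was -0.092 (7 of 10 negative). Meis1, which binds DNA with Hoxa9 and is needed to maintain HSCs, read 10.05, 10.42, 10.37, 10.02 and 10.26 on the transgenic arrays. It read 10.61, 10.34, 10.37, 10.23 and 10.39 on the wild-type arrays, so the groups overlapped, with a difference of -0.16 (SE 0.10, adjusted p = 0.896, limma). Pknox1 differed most, by -0.48 (SE 0.29), followed by Pbx3 at 0.25 (SE 0.19).

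Regulators of the HOX clusters were read in the same way. Of 16 genes of the MLL complex, its partners and the CDX activators 0 passed and 1 had an unadjusted p under 0.05. That 1 was Mllt3, a partner of MLL in the elongation machinery that helps to maintain human HSCs, which was 0.30 higher (SE 0.13, adjusted p = 0.702, limma). Kmt2a, which encodes MLL itself, read 9.92 ± 0.13 and 9.88 ± 0.19 (SD, n = 5 each). Of 12 Polycomb genes 0 passed, and Ezh2, the methyltransferase subunit, alone had an unadjusted p under 0.05 (-0.46, SE 0.15, adjusted p = 0.445, limma). Of 13 genes of the retinoic acid pathway, which induces anterior HOX genes, 0 passed. The receptor genes Rara and Rxra were 0.30 (SE 0.10) and 0.36 (SE 0.16) higher, with adjusted p of 0.487 and 0.749 (limma). Both lay below the median of probe sets, at percentiles 49.7 and 42.9.

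**Figure D4:**
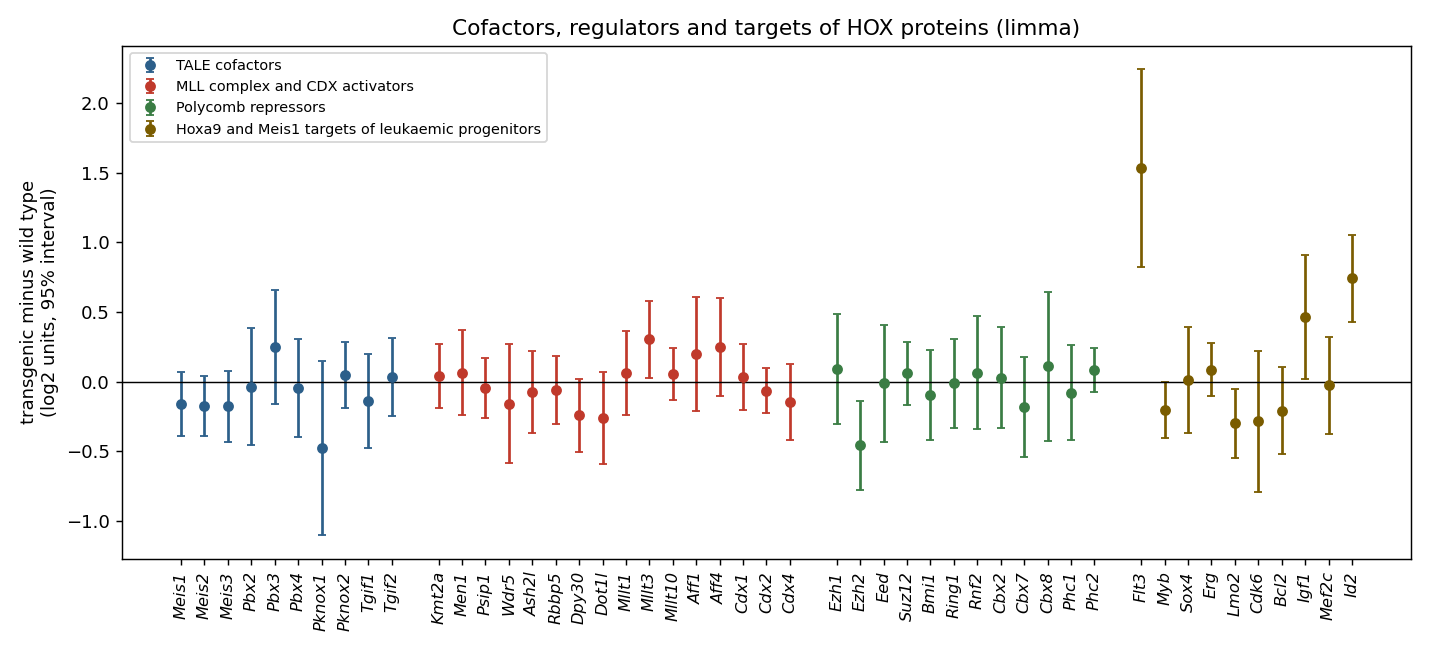
Difference between the groups (vertical axis, log2 units, limma estimate with its 95% interval, n = 5 against 5) for TALE cofactors, activators, Polycomb genes and reported Hoxa9 and Meis1 targets (horizontal axis). Most intervals include 0; Flt3 at 1.53 and Id2 at 0.74 lie farthest above it.

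The next list held genes reported as targets of Hoxa9 and Meis1 in leukaemic progenitors. Of 10 measured 0 passed the threshold, while 3 were higher and 2 lower with an unadjusted p under 0.05, beside 3.7% and 2.9% of all probe sets, and the median difference was -0.0085. Flt3, a cytokine receptor of multipotent progenitors, read 8.58, 7.57, 8.57, 8.99 and 9.24 on the transgenic arrays and 7.44, 7.13, 7.48, 6.14 and 7.10 on the wild-type arrays. These groups did not overlap, as for 1.47% of all probe sets, and the difference was 1.53 (SE 0.32, adjusted p = 0.132, limma). Id2, an inhibitor of E proteins, read 5.50, 5.39, 5.80, 5.97 and 6.08 against 4.96, 4.85, 5.29, 4.99 and 4.94. It did not overlap either and was 0.74 higher (SE 0.14, adjusted p = 0.0986, limma). Its mean level lay below the median of probe sets, at percentile 42.2. Lmo2, a bridge of stem cell transcription complexes, differed by -0.30 (SE 0.11), and the growth factor gene Igf1 by 0.46 (SE 0.20).

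Markers of the sorted cells, and of others that the gate could hold, differed as follows. Of all probe sets 0.141% passed the threshold, and 1.47% did not overlap between the groups. With an unadjusted p under 0.05, 3.7% of all were higher and 2.9% lower in the transgenic group. Of 11 HSC markers 0 passed the threshold, 5 were higher and 1 lower with an unadjusted p under 0.05, and the mean over the list ran from 8.00 to 8.21 in the transgenic group and from 7.77 to 8.03 in controls. Vwf differed by 1.28 (SE 0.25) and Procr by 1.08 (SE 0.27), neither overlapping between the groups, Kit by -0.47 (SE 0.12) and Mecom by 0.33 (SE 0.10). Cd48, whose protein the gate excludes, averaged 6.29 in the transgenic group and 4.96 in controls, a difference of 1.34 (SE 0.29, adjusted p = 0.145, limma). Of 6 multipotent progenitor markers 1, Satb1, rose (0.81, adjusted p = 0.0109, limma), and the level of the list, as the mean over its genes, ran from 6.19 to 6.70 in the transgenic group and from 5.66 to 5.97 in controls. Of 8 erythroid and megakaryocyte markers 2 fell, Pf4 (-2.53) and Gfi1b (-1.05), with adjusted p of 0.0112 and 0.0266 (limma), and the list ran from 5.70 to 6.06 against 6.48 to 6.96. Of 10 endothelial markers 1, Egfl7, rose (1.21, adjusted p = 0.0260, limma), and the list ran from 6.35 to 6.68 against 5.85 to 6.20. Stromal cells can carry HOX transcripts too: 0 of 10 stromal markers had an unadjusted p under 0.05 and the list ran from 4.57 to 4.75 and 4.52 to 4.77, with Lepr at 3.11 and 3.12. Of 9 granulocyte and monocyte markers 0 passed, with 5.49 to 6.69 against 5.23 to 5.51. The top of the transgenic range was array 5, where Mpo read 8.63, S100a8 7.92 and S100a9 8.39; the transgenic median was 5.60. Egfl7 and Gfi1b lost their calls without some single arrays, with all probe sets tested and with a floor on low values, and Gfi1b also after quantile normalization. Pf4 lost its call with the floor, and none of these 4 genes passed within either array set. The part of these markers in the HOX values was not tested.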

How the data were processed

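RNA of 10 HSC aliquots, 5 a group by the sample titles, was hybridised to Affymetrix Mouse Gene ST arrays. The authors deposited 1 table of log2 values of 35556 probe sets. Per the submitters' processing notes these are RMA values, with affy and limma also named; the sources used here name no version, setting or genome build. RNA was amplified before labelling, per the labels' protocols. Values were used as they stand.

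Probe sets were named from the platform annotation: 21789 had 1 symbol, 1621 several and 12146 none. The 23410 named ones entered lmFit and eBayes of limma 3.58.1 (R 4.3.3), a two-sided test with Benjamini-Hochberg adjustment over all. Each gene took the probe set of highest mean among those naming it alone. HOX genes above the median of tested probe sets, or with an unadjusted p under 0.05, were named array by array. Of other lists, up to 4 members with an unadjusted p under 0.05 were named, with Meis1 and Sox17. Kmt2a, Lepr, Pbx3, Pknox1, S100a8, S100a9, Mpo, Ngp, Csf1r, Skap2, Xist, Eif2s3y and the non-coding RNA genes were named outside this rule, after their values were seen. The members and lists were chosen with earlier results of these data known. The procedure was checked on simulated data, drawn independently for each probe set and array. The simulated arrays had no shared component like the one that splits the real arrays, so the check does not cover it. Arrays carry no read depth; their number limits the precision.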

Additional observations from a re-analysis of the deposited data

Results flagged for a closer look

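An array far from the other 4 of its group, by Dixon's criterion, appeared in 6 of the 76 groups of 5 arrays checked; chance alone gives about 1 in 20. Hoxa3 read 6.46 on transgenic array 1, against 5.83 to 5.98 on the other transgenic arrays. Hoxb1 read 6.53 on the same array, against 6.22 to 6.30. Hoxa6 read 6.97 on wild-type array 5, against 6.26 to 6.42 on the other wild-type arrays. Rara read 5.92 on wild-type array 5, against 5.52 to 5.61. Flt3 read 6.14 on wild-type array 4, below the 7.10 to 7.48 of the others. Lyz2, a lysozyme gene of myeloid cells, read 9.08 on transgenic array 2, against 8.57 to 8.70.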

How the results depend on the processing

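The count of 0 HOX genes past the threshold was the same under all 13 alternatives tried and without each of the 10 arrays (limma). The number with an unadjusted p under 0.05 was 1 with the replicate block, the trend and robust prior, the array set as a block and within set B, 2 within set A, and 0 to 2 without single arrays; these were Hoxa7, Hoxa9, Hoxb6 and Hoxb7, with adjusted p of at least 0.491. The HOX median of -0.033 was 0.054 within set A. Signs changed for Hoxa4 (-0.013 with the set block, -0.030 within set B), Hoxb4 (0.10 with the set block, 0.15 within set A, 0.057 within set B), Hoxb3 (0.24 within set A), Hoxa3 (-0.043) and Hoxb5 (0.13) within set B. Without single arrays the ranges that cross 0 were -0.0034 to 0.19 for Hoxa3, -0.042 to 0.050 for Hoxa4, -0.082 to 0.23 for Hoxa6, -0.21 to 0.011 for Hoxb3 and -0.35 to 0.052 for Hoxb4; the cause was not tested.

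Over all genes 33 probe sets passed, and 15 with all probe sets tested, 91 with the set block, 4 and 6 within sets A and B (fewer arrays), 8 with a floor at the 20th percentile and 7 at a threshold of 0.01. The number was 71 without transgenic array 2, 24 and 34 without transgenic arrays 1 and 5, and 15 to 20 without transgenic array 3 or 4 or any 1 wild-type array. Of the other listed genes 4 passed, and 2, 8, 0, 0 and 1 under the first 5 of these settings and 2 to 6 without single arrays; Egfl7 and Gfi1b were those most often lost. With the replicate number as a block 33 probe sets and 5 listed genes passed. Same-numbered arrays' deviations correlated at -0.14 to 0.35, and 0 of 5 transgenic arrays matched best to their own number, so the numbers were not taken as pairs. Averaging a gene's probe sets changes no HOX value, as each has 1. Low signal limits the HoxC and HoxD genes.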
